A study of Malus domestica with 12 samples.

Results

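Among the small RNAs bound to ARGONAUTE (AGO) proteins in apple flower buds, 2 sequences without a database name were picked for their rise in late ecodormancy. They are t11329296_x5768 and t10036822_x303, both 21 nucleotides long and each found at 1 hairpin locus of the genome, and they make 2 of the 116 unnamed sequences and of the 370 distinct mature sequences counted. The study sequenced small RNAs from apical buds of "Golden Delicious" trees over 1 winter, with 4 stages of dormancy and 3 libraries for each stage. Each library was made from a mix of 9 buds from 3 trees. Stage 1 (Early Endodormancy) was sampled after 665 chilling hours, Stage 2 (Late Endodormancy) after 1098, Stage 3 (Early Ecodormancy) after 1280 and Stage 4 (Late Ecodormancy) after 1395. All trees were of 1 cultivar and no treatment was given, so the groups differ in sampling date and in the chilling received, and stage and date cannot be told apart. The libraries are called A to C at Stage 1, D to F at Stage 2, G to I at Stage 3 and J to L at Stage 4. The tables hold no messenger RNAs, so the identity of the bud tissue could not be checked with marker genes.

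In endodormancy, growth is blocked by signals within the bud, and long exposure to cold lifts the block. In ecodormancy, the bud could grow and is held back only by cold weather. A plant microRNA (miRNA) is cut from a hairpin precursor by a Dicer-like enzyme as a short duplex with overhanging 3′ ends. One strand, the mature sequence, is kept by an AGO protein and guides it to RNAs of nearly complementary sequence, while the other strand, called the star, is usually degraded. Many plant miRNAs are shared between distant species, and others are found in a single lineage only. In Arabidopsis, the first base of a small RNA is one of the features that decide which AGO protein takes it up, with AGO1 taking mostly sequences that start with U and AGO2 and AGO4 mostly those that start with A.

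The mature and star sequences of the 2 small RNAs are shown first, since their letters say what was counted. Capitals mark bases 2 to 8, the region near the 5′ end of the guide strand, and T stands for U as in the deposited table.
t11329296_x5768 mature: tATATGGAgggaaatatggtg
t11329296_x5768 star: cCATATGTccctccatatact
t10036822_x303 mature: aAATGAGCggagtggaaagaa
t10036822_x303 star: cTTTCCAAtaccgctcatttca
Both mature sequences came from the 5′ arm of the hairpin, the arm of 47 of the 116 unnamed sequences. In t11329296_x5768 the first base was U and no C was present, and 15 of the 21 bases were purines (A or G). In t10036822_x303 the first base was A, and 18 of the 21 bases were purines, or 85.7%, the highest value of the 116 unnamed sequences, whose median was 54.2%. Of the 15 unnamed sequences of 21 nucleotides, 6 started with U and 4 with A. By contrast, 86 of the 96 unnamed sequences of 24 nucleotides started with A. No other sequence of the 370 shared bases 2 to 8 with either of the 2, and 12 edits (substitutions, insertions or deletions) separated them from each other.

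The star of t11329296_x5768 had a name of its own. Its letters are those of mdm-miR10987, an apple miRNA of miRBase, so the unnamed sequence is the opposite strand of a named miRNA. Only 3 of the 116 unnamed sequences had a named star, and the others were t08515395_x8579, paired with mdm-miR164c, and t10644006_x200, paired with mdm-miR408a. The named strand was the rarer one here. The number at the end of an unnamed sequence's name is the sum of its reads. Over the 12 libraries mdm-miR10987 had 15 reads, so that the named strand made up 0.259% of the reads of the 2 strands (exact binomial 95% interval 0.145% to 0.427%, counting error only).

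Neither mature sequence was close to a named one. The fewest edits from t11329296_x5768 were 7, to mdm-miR7122a, whose family targets pentatricopeptide repeat genes in Rosaceae. For t10036822_x303 the closest was mdm-miR482d, also at 7 edits, and its star lay 7 edits from mdm-miR482a-3p and from another 2 sequences. The miR482 family is known for targeting disease resistance genes of the NBS-LRR class. Both strands of t10036822_x303 thus had a miR482 sequence among those at the smallest distance. The strands are nearly complementary to each other, so these are not separate observations, and a family link was not tested. The miR482 sequences are printed for comparison with capitals at bases 2 to 8.
mdm-miR482d: aATGGAAGggtaggaaagaag
mdm-miR482a-3p: tTCCCAAGcccgcccattccta
Over the 116 unnamed sequences the median distance to the nearest named one was 10 edits, and 11 of them lay at 7 or fewer. For the stars the median was 9 edits, and 8 of 114 lay at 7 or fewer. The star of t11329296_x5768, compared with all named sequences but itself, was 9 edits from bna-miR171g and from another 3.

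The precursors were read from the deposited table, with the mature sequence and the star in capitals (mature first). They lie on the GDDH13 v1.1 genome at chr8:11111445-11111630 on the plus strand for t11329296_x5768 and at chr16:2580371-2580477 on the minus strand for t10036822_x303.
t11329296_x5768 precursor: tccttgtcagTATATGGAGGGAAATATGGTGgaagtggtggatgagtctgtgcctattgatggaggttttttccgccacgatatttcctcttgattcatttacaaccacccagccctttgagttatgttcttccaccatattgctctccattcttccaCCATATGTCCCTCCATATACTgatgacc
t10036822_x303 precursor: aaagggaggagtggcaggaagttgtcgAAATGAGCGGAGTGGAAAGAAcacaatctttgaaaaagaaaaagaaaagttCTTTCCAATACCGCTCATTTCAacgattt
No gene annotation of this build was used here, so the genes around the loci are not given. No other hairpin of the table lay within 10 kb of either locus. The nearest on the same chromosome were mdm-miR396g, 6245 kb from t11329296_x5768, and cme-miR319c, 387 kb from t10036822_x303.

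The 2 precursors folded into different shapes, with equal numbers of paired mature bases. In the minimum free energy fold of RNAfold, 20 of the 21 mature bases were paired in each of the 2, with base 13 of t11329296_x5768 and base 12 of t10036822_x303 left unpaired. The stars had 21 and 22 bases, of which 20 and 19 were paired. In both precursors, 18 mature bases paired with the star, and the mature strand and the star each overhung by 2 bases at the 3′ end. The median number of unpaired mature bases over the other 123 loci of unnamed sequences was 2. Beyond the duplex, 127 nucleotides separated the arms of t11329296_x5768 and folded into a stem with 2 terminal loops. This distance ranked 115 from the shortest among the 125 loci, against a median of 53 over the others. In t10036822_x303 the arms were 30 nucleotides apart with 1 terminal loop, which ranked 16 from the shortest. Per 100 nucleotides the folding energy was -40.1 kcal/mol for t11329296_x5768 and -36.8 for t10036822_x303, against a median of -40.8 for the others, while the total energy was -39.4 kcal/mol for the 107 nucleotides of t10036822_x303. The first precursor was thus long and branched and the second short and unbranched. Whether either meets the criteria for a functional miRNA hairpin was not tested here.

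**Figure D1:**
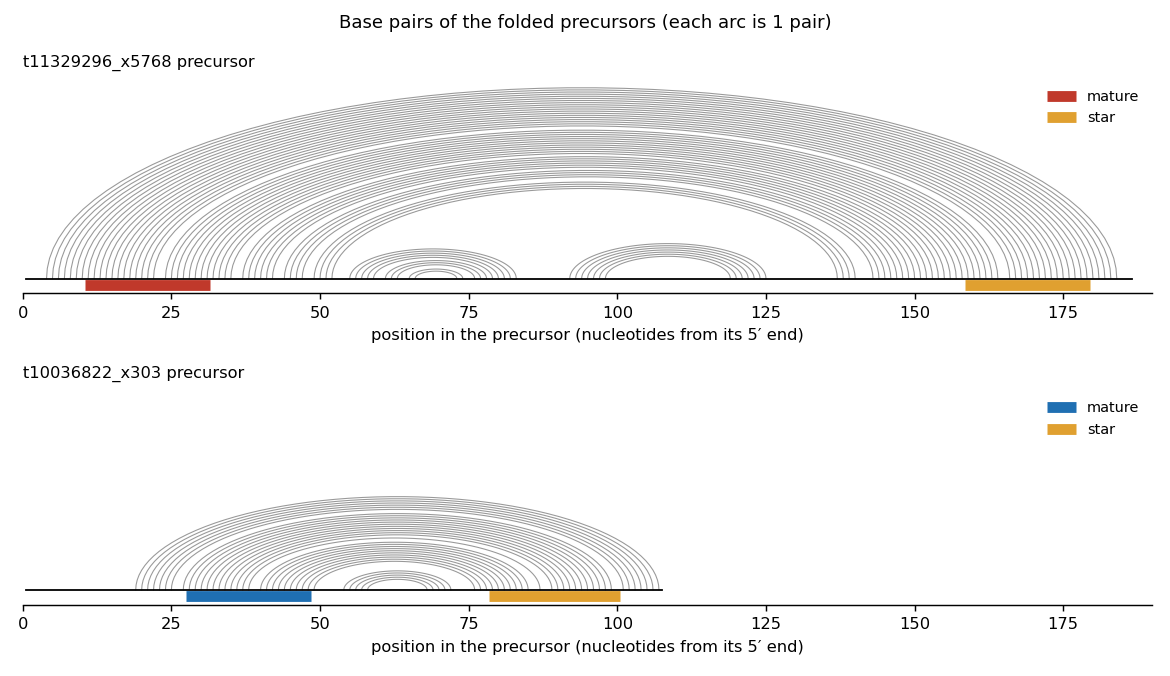
Base pairs of the 2 folded precursors by position in nucleotides from the 5′ end, where each arc joins 2 paired bases. Bars under the line mark the mature sequence (red for t11329296_x5768, blue for t10036822_x303) and the star (yellow), whose arms are 127 nucleotides apart with 2 inner stems in the upper map and 30 apart with 1 in the lower.

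Each library held between 561723 and 2307267 mature reads over the 370 sequences. Levels are given as counts per 1000000 mature reads (CPM) after TMM scaling, which corrects library sizes for a few very abundant sequences. The TMM factors ran from 0.639 in library L to 1.69 in library J, and D (0.640) and L had the lowest, so values without these libraries are given where they differ. A count of 0 allows up to 3 reads, or 1.30 to 5.34 CPM before TMM scaling, and this limit covers counting error only. The labels do not say whether the libraries of a stage share trees, so p-values measure the spread between these mixes of buds only.

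The levels of t11329296_x5768 fell into 3 bands over the winter. In whole buds, more cells that hold a small RNA and more of it in each cell cannot be told apart. It had 54, 38 and 25 reads at Stage 1, which is 33.2, 31.5 and 25.1 CPM. At Stage 2 it had 37, 14 and 15 reads, or 33.4, 12.02 and 14.8 CPM. Stage 1 and Stage 2 overlapped. After TMM scaling, library D of Stage 2 lay above all libraries of Stage 1 and libraries E and F below them. Before that scaling, the sequence made up 0.00214% of the mature reads in D. This was below A and B (0.00259% each) and above C (0.00209%). At Stage 3 it had 574, 111 and 388 reads, or 332, 137 and 246 CPM. At Stage 4 it had 968, 1273 and 2271 reads, or 999, 1009 and 1540 CPM. The lowest library of Stage 3 was above all 6 of the first stages, and the lowest of Stage 4 was above all of Stage 3. Within Stage 4 the order depended on the scaling, since before TMM the share was 0.169% in J, 0.133% in K and 0.0984% in L. The means were 29.95 ± 4.27, 20.1 ± 11.6, 238 ± 97.8 and 1183 ± 310 CPM at Stages 1 to 4 (SD, n = 3 each). Of all its reads, 78.2% were in the libraries of Stage 4 and 18.6% in those of Stage 3.

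The small RNA t10036822_x303 was rare at Stages 1 to 3 and had a single clear level, at Stage 4. It had 0, 0 and 1 reads at Stage 1, or 0, 0 and 1.00 CPM. At Stage 2 there were 0, 15 and 7 reads, or 0, 12.9 and 6.91 CPM, and at Stage 3 there were 0, 4 and 26 reads, or 0, 4.92 and 16.5 CPM. Stages 2 and 3 overlapped fully, and each had a library without a read. Stage 4 gave 51, 54 and 145 reads, or 52.6, 42.8 and 98.3 CPM, all above the highest earlier value. Its order within Stage 4 depended on the scaling. Before TMM the share of mature reads was 0.00890% in J, 0.00566% in K and 0.00628% in L. Means over Stages 1 to 4 were 0.335 ± 0.580, 6.60 ± 6.44, 7.13 ± 8.46 and 64.6 ± 29.6 CPM (SD, n = 3 each). Stage 4 held 82.5% of its reads, and the SD exceeded the mean at Stages 1 and 3.

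**Figure D2:**
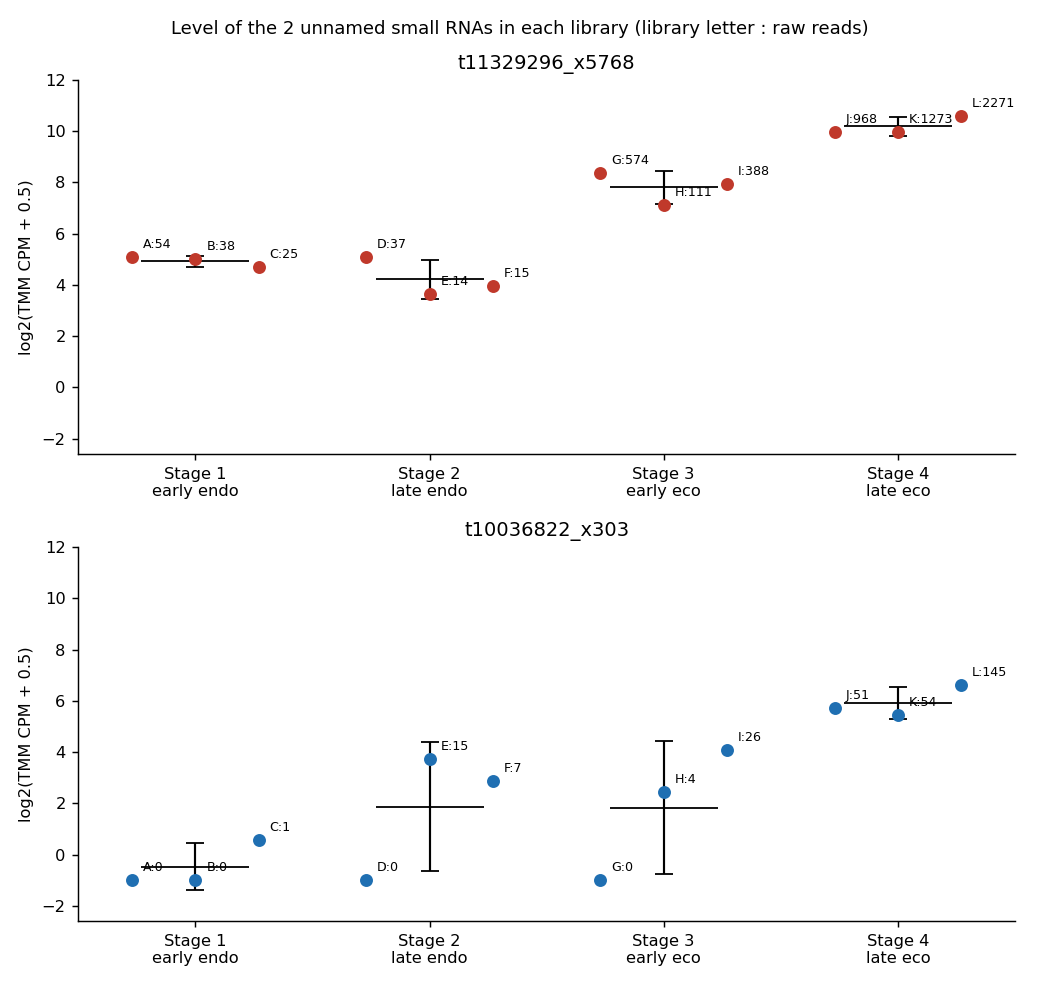
Level of t11329296_x5768 (upper panel) and t10036822_x303 (lower panel) as log2(TMM CPM + 0.5) in the 12 libraries, 3 for each stage, with the library letter and raw reads beside each point and the mean and SD as black bars. The upper panel steps up at Stage 3 and again at Stage 4, while the lower has points at 0 reads in libraries A, B, D and G and its highest points in J, K and L.

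The libraries without a read of t10036822_x303 were not the shallow ones. Libraries A, B, D and G had 2088298, 1464830, 1727740 and 1498997 mature reads and ranked 2, 5, 3 and 4 of the 12 in depth. At those depths a count of 0 allowed up to 1.84, 2.49, 2.71 and 1.73 CPM after TMM scaling. Library E of Stage 2, with fewer reads (985517), had 12.9 CPM, so libraries of 1 stage differed by more than this limit. Whether this spread comes from the buds or from the libraries was not tested.

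Since both sequences were picked for the rise at Stage 4, the size of that rise is a description and no test was made. In the edgeR fit over all 12 libraries, the log2 fold change of Stage 4 against the mean of Stages 1 to 3 was 4.49 (SE 0.345) for t11329296_x5768 and 4.60 (SE 1.15) for t10036822_x303. These were the second and the first of the 238 sequences that passed the filter on low counts. All 3 Stage 4 libraries lay above the other 9 in 6 sequences, or 2.52% of the 238, both among them. By stage, the mean level of t11329296_x5768 at Stage 4 was 39.5 times that of Stage 1, 58.9 times that of Stage 2 and 4.97 times that of Stage 3. The matching ratios of t10036822_x303 were 9.79 against Stage 2 and 9.05 against Stage 3. Against Stage 1 it had 250 reads at Stage 4 and 1 read at Stage 1, a ratio of scaled rates of 258 with an exact counting interval of 45.9 to 10238, which covers counting error only. Its level at Stage 1 rested on that read alone.

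The unnamed sequences had a median change near 0, and those of 21 nucleotides, the length of the picked ones, a median below 0. Of the 116 unnamed sequences, 113 passed the filter, and the other 111 had a median log2 fold change of 0.21 at Stage 4, against 0.05 over all 238. The other 13 unnamed sequences of 21 nucleotides had a median of -0.78, with a positive value in 2 of 13. The unnamed sequences next below were t06991240_x100 at 2.44 (SE 1.51), t05186586_x137 at 2.26 (SE 1.33) and t01818456_x151 at 2.01 (SE 1.31). All of these were rare, with 10.05 ± 9.91, 20.1 ± 8.71 and 19.4 ± 19.6 CPM at Stage 4 (SD, n = 3 each). Their values were lower than those of the picked sequences, which were chosen on this measure, and with such SEs they are given as a description. At Stage 4, t11329296_x5768 ranked 2 among the 116 unnamed sequences by mean level and 18 among all 370, and at Stage 1 it ranked 57 and 134. For t10036822_x303 the ranks were 48 and 110 at Stage 4, and 114 and 285 at Stage 1.

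**Figure D3:**
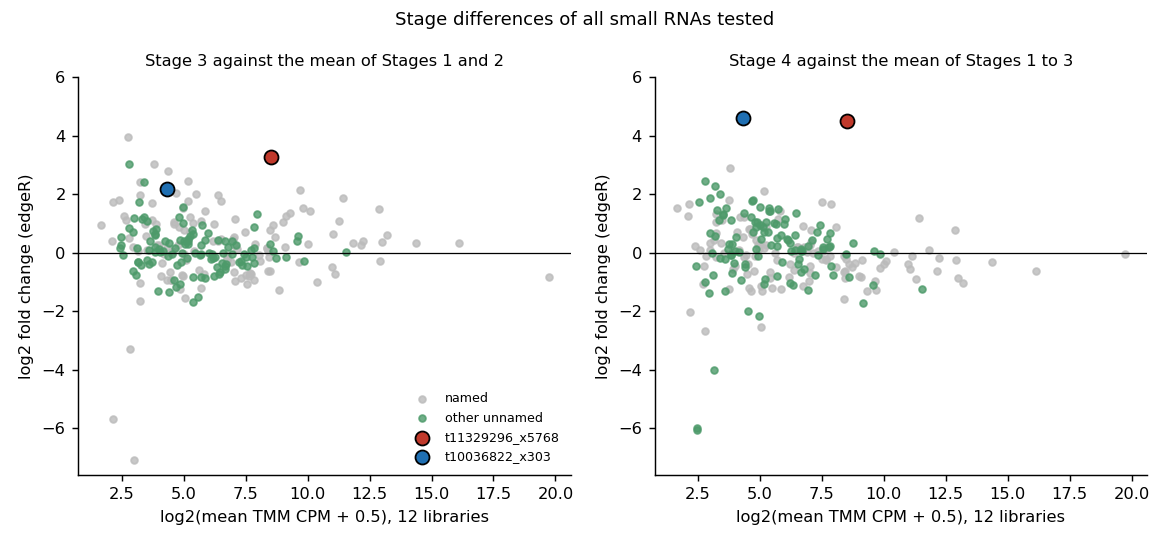
Log2 fold change against the mean level of the 238 small RNAs tested, with Stage 3 against the mean of Stages 1 and 2 on the left, and with the change at Stage 4 from the mean of the 3 earlier stages on the right, drawn with named sequences in grey, other unnamed in green and the 2 picked sequences as large points. On the right, t10036822_x303 at 4.60 and t11329296_x5768 at 4.49 lie above all other points, and on the left they are at 2.17 and 3.27.

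The step from endodormancy to early ecodormancy sets no Stage 4 level against another and could be tested, although in the fit over all 12 libraries the Stage 4 libraries entered the scaling, the filter and the estimate of the spread. At Stage 3, t11329296_x5768 rose by a log2 fold change of 3.27 (SE 0.392) against the mean of Stages 1 and 2, with an adjusted p of 7.42e-06 by edgeR's quasi-likelihood test. With only the libraries of Stages 1 to 3 in the fit, the log2 fold change was 3.18 (SE 0.490) and the adjusted p 0.000722 by the same test. In the fit over 12 libraries it was 1 of 2 sequences called higher, or 0.84% of the 238, and none was called lower. The number called in either direction was 1 of 244 without library G, 8 of 244 without D, 10 of 246 without H and 9 of 242 without D and L. The other was mdm-miR5225c, with a log2 fold change of 1.88 (SE 0.356) and an adjusted p of 0.00333 by the same test. In 7 of the 238 sequences, or 2.94%, all 3 Stage 3 libraries lay above the 6 of Stages 1 and 2, and t11329296_x5768 was among them. The sequence had been listed as changing in the study from these same libraries, so the test is not independent evidence. Without libraries D and L the log2 fold change was 3.65 (SE 0.343), with an adjusted p of 7.88e-06 by edgeR. The call held without each library in turn, with log2 fold changes between 2.96 without library G and 3.65 without library D.

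For t10036822_x303 the same comparison gave a log2 fold change of 2.17 (SE 1.33) and an adjusted p of 0.530 by edgeR, and was not called. It passed the filter on low counts only through Stage 4, with enough reads in 2 of the 9 libraries of Stages 1 to 3. Library I held 26 of its 30 reads at Stage 3, and without that library the log2 fold change was 0.55. With only the libraries of Stages 1 to 3 and no filter, it was 2.15 (SE 1.89) with an adjusted p of 0.778 by edgeR. The estimate over 12 libraries lay within 2 SE of 0 and of 3.27, so neither no change nor a change of the size seen in t11329296_x5768 could be set apart from it.

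Between Stage 2 and Stage 1, within endodormancy, neither sequence was called. The log2 fold change of t11329296_x5768 was -0.58 (SE 0.485), with an adjusted p of 0.963 by edgeR's quasi-likelihood test. It was -1.39 without library D, the only Stage 2 library at the level of Stage 1, and was still not called. For t10036822_x303 it was 4.12 (SE 1.88), with an unadjusted p of 0.0401 and an adjusted p of 0.963 by edgeR, and rested on 22 reads at Stage 2 against 1 read at Stage 1. Here too it was in the fit only because of its reads at Stage 4. With only the libraries of Stages 1 and 2 and no filter, the value was 4.02 (SE 2.76), with an unadjusted p of 0.157 and an adjusted p of 0.738 by edgeR. The ratio of scaled rates was 25.6, with an exact counting interval of 4.14 to 1058 that leaves out the spread between libraries. By edgeR, 0 of the 238 sequences (0.0%) were called in this comparison and 12 (5.04%) had an unadjusted p of 0.05 or less. DESeq2 also called 0, of 369 sequences, with 15 at that unadjusted p.

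Both small RNAs were picked for a rise at Stage 4, so their shared highest stage follows from the choice. Their ratio differed between libraries. At Stage 4 there were 5.27, 4.24 and 6.38 reads of t10036822_x303 for each 100 reads of t11329296_x5768 in libraries J, K and L. Summed over Stage 4 the ratio was 5.54 (exact interval 4.86 to 6.29, counting error only). At Stage 3 it was 0, 3.60 and 6.70 in libraries G, H and I, so that the 2 stages overlapped. Summed over Stage 3 it was 2.80 (1.88 to 4.02), and without library G it was 6.01 (4.01 to 8.69). In library E of Stage 2 it was 107, with 15 reads against 14, and in library F it was 46.7. Those libraries held the lowest levels of t11329296_x5768 in the series and the highest levels of t10036822_x303 before Stage 3. Over the 12 libraries the Pearson correlation of log2(CPM + 0.5) was 0.61 and Spearman's rho was 0.48, and the correlation of the deviations from the stage means was -0.67. Libraries D and G had no read of t10036822_x303 and the highest levels of t11329296_x5768 at Stages 2 and 3 (33.4 and 332 CPM). The negative value thus rests in part on empty libraries. The points share library, depth and scaling. The Stage 4 rise for which both were picked also enters the correlations over the 12 libraries. All of these values are given as a description.

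Star reads of t11329296_x5768, those of mdm-miR10987, did not accompany its high level. There were 5 in library F of Stage 2 and 10 in library I of Stage 3, and none in the other 10 libraries. At Stage 4, 0 star reads stood beside 4512 mature reads, which allows a share of up to 0.0665%. In library I the share was 2.51% (exact binomial 95% interval 1.21% to 4.57%), and in library F it was 25% (8.66% to 49.1%) with 15 mature reads. The few star reads thus came from 1 library of Stage 2 and 1 of Stage 3. Library G of Stage 3 had none, with 574 mature reads against 388 in library I, so no order in time can be read from them. The star of t10036822_x303 has no name and its reads were not analysed here.

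Sequences with a pattern most like the picked ones were ranked by the Pearson correlation of log2(CPM + 0.5) over the 12 libraries, among the sequences that passed the filter, as a description. For t11329296_x5768 they were ptc-miR159d (r = 0.91), mdm-miR5225c (0.84), mdm-miR390e (0.75), mdm-miR159a (0.73) and mdm-miR395l (0.70). The last of these was rare, without a read in libraries E, F and H. The family of miR159 targets GAMYB transcription factors, miR390 starts the production of TAS3 small interfering RNAs and miR395 acts on sulfate assimilation. The closest, ptc-miR159d, had 97.7 ± 29.2, 92.0 ± 8.16, 155 ± 28.3 and 372 ± 91.0 CPM at Stages 1 to 4 (SD, n = 3 each), the same order of stages with smaller steps. In mdm-miR5225c the level was 4366 ± 2473 CPM at Stage 3 and 4178 ± 1412 CPM at Stage 4, so these means lay within 1 SD of each other. For mdm-miR390e the means were 168 ± 13.1 CPM at Stage 1, 174 ± 44.4 CPM at Stage 3 and 479 ± 92.6 CPM at Stage 4.

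For t10036822_x303 the most alike were ptc-miR159d again (r = 0.73), t05550832_x116 (0.71), mdm-miR390e (0.67), t06353578_x159 (0.65) and ppe-miR858 (0.64). Libraries B and D, without a read of t10036822_x303, also had no read of t05550832_x116, t06353578_x159 or ppe-miR858. The r values of those sequences thus rest in part on shared empty libraries. The family of miR858 targets MYB genes of flavonoid synthesis. Both unnamed sequences of this list were 24 nucleotides long and rare, at 15.8 ± 6.09 CPM for t05550832_x116 and 19.01 ± 14.9 CPM for t06353578_x159 at Stage 4 (SD, n = 3 each). In ppe-miR858 the level reached 51.6 ± 43.01 CPM at Stage 3 and 71.5 ± 25.7 CPM at Stage 4. Among the 237 other sequences, each of the 2 picked ones ranked below this list for the other, at 11 for t11329296_x5768 and 9 for t10036822_x303.

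**Figure D4:**
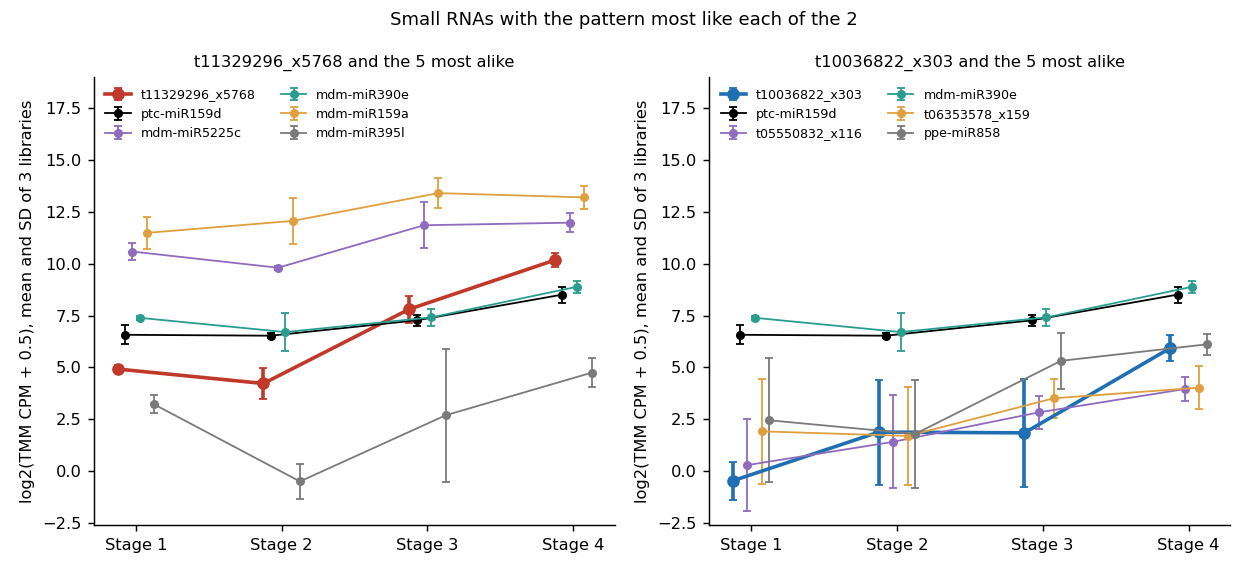
Mean log2(TMM CPM + 0.5) by stage, with the SD of 3 libraries as bars, of t11329296_x5768 (left, red) and t10036822_x303 (right, blue) and of the 5 sequences most like each. The largest rise from Stage 1 to Stage 4 on the left is that of t11329296_x5768, and ptc-miR159d and mdm-miR390e are in both panels.

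Predicted target sites show which RNAs the 2 sequences could pair with. The letters were taken from a list of predictions published with the study, and capitals mark bases that form a Watson-Crick pair with the small RNA. The distinct sites with the most such pairs are shown for each of the 2. The sites run 5′ to 3′, so their right end pairs with the 5′ end of the small RNA.
Site in MD01G1151900 and MD07G1219300 for t11329296_x5768: uACCAUccUUCCCUCCAUAUA
Site in MD00G1201000 and MD17G1197400 for t11329296_x5768: CAaCAUAUUguCCUCCAUAUA
Site in MD01G1196600 for t11329296_x5768: CuCCAUAUUUuCCUCCAaAUA
Site in MD00G1148400 for t10036822_x303: UUgUUUCucCUCCGCUCAUUU
In each of these sites 18 of the 21 bases were paired. In those in MD01G1151900, MD00G1201000 and MD00G1148400 all 7 bases from 2 to 8 of the small RNA were among them. Base 11 of the small RNA was paired in the sites in MD01G1151900, MD07G1219300 and MD00G1148400. It formed no Watson-Crick pair in those in MD00G1201000, MD17G1197400 and MD01G1196600. The pair of sites in MD01G1151900 and MD07G1219300 had the same letters, as had the pair in MD00G1201000 and MD17G1197400. The genes are given by identifier only, and whether any of these RNAs is cut was not tested here.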

How the data were processed

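Small RNAs bound to AGO proteins were isolated with TraPR columns and sequenced in 12 libraries. According to the submitters' notes and the study's methods, the authors used CASAVA, Bowtie 0.12.9 and Mir-Island 2.0 on the GDDH13 v1.1 genome, with miRBase and PNRD as sources of names. The deposited tables hold raw read counts per mature sequence, without normalization, in 1 column for each library, as the authors made them. Mismatches allowed and the treatment of reads with several loci are not given in the sources used here. In all, 48 further columns of values per library (star reads of the de novo table and normalized values) were not used. Star reads of t11329296_x5768 were taken as those of mdm-miR10987 in the table of named sequences. Also, 4 empty lines of the de novo table were left out. Its header names 56 of 57 columns, so columns were taken by number. The stage of each library follows the letters and stages that the study gives.

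Loci with the same mature sequence were collapsed, and named sequences found in both tables had equal counts. Counts of 370 sequences were fitted in edgeR 4.0.16 (R 4.3.3) with TMM factors, filterByExpr (minimum count 10, minimum total 15), 1 mean per stage over all 12 libraries, quasi-likelihood tests and Benjamini-Hochberg adjustment over the 238 sequences that passed. Calls were made at an adjusted p below 0.05. Standard errors were calculated from the fold change and its test statistic. The script was tested on simulated data. Alternatives were DESeq2 1.42.0, other scalings, no filter, the likelihood ratio test, subsets of stages and leaving out libraries. Precursors were folded with RNAfold 2.7.2, and letters were compared by edit distance in Python 3.11.15. The mature reads per library (561723 to 2307267) limit precision, and at 3 reads for a count of 0 the limit is 1.30 to 5.34 CPM.

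The text names the 2 picked sequences, the 5 most like each, the 3 unnamed ones next in the Stage 4 fold change, neighbours within 10 kb and the nearest named sequences by edits. Members, lists and tests were chosen with earlier results of these data known.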

Additional observations from a re-analysis of the deposited data

How the results depend on the processing

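For both sequences, the 2 tested comparisons kept their direction and their side of the threshold, and the Stage 4 value its direction, under every alternative run. Library totals implied by the RPM columns were not run, since those columns were not used. The log2 fold change of t11329296_x5768 at Stage 3 against the mean of Stages 1 and 2 ran from 3.18 to 3.85 over the other settings and from 2.96 to 3.65 without each library in turn, with adjusted p from 4.06e-12 (DESeq2) to 0.000722 (edgeR, only Stages 1 to 3). For t10036822_x303 it ran from 1.90 to 2.53 over the other settings and from 0.55 (without library I) to 3.16 (without library C), with adjusted p from 0.429 to 0.994 by edgeR and DESeq2, and it could not be fitted with the filter on Stages 1 to 3 alone. For Stage 2 against Stage 1 the leave-one-out values were -1.39 to -0.32 for t11329296_x5768 and 3.18 to 5.87 for t10036822_x303. For Stage 4 against the mean of Stages 1 to 3 they were 4.38 to 4.97 and 4.39 to 5.61. Scaling by library size alone moved the median of all sequences to 0.66 at Stage 3, against 0.17 with TMM. Relative to that median, t11329296_x5768 was at 3.19 with library size alone and at 3.11 with TMM. The number of small RNAs called at Stage 3, 2 of 238 with the settings used, was 5 of 238 with median-of-ratios scaling and 11 of 238 with library size alone. It was 7 of 370 with no filter and 4 of 311 with DESeq2. When each library was left out it was 1 to 10 (1 of 244 without library G, 8 of 244 without D, 10 of 246 without H). It was 14 of 354 with only Stages 1 to 3 and no filter and 9 of 242 without libraries D and L, alternatives chosen after seeing the data. The cause of these differences was not tested. Stage 2 against Stage 1 gave 0 calls under all alternatives. No paired analysis was possible because the columns carry no replicate number. For t10036822_x303, with 1, 22 and 30 reads in all at Stages 1 to 3, counting error and the spread between libraries both enter the SE and were not separated.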
